A study of Homo sapiens with 9 samples.

Results

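The 10 integrin subunit genes ITGA2, ITGA3, ITGA5, ITGA6, ITGAV, ITGB1, ITGB4, ITGB5, ITGB6 and ITGB8 were followed across 3 states of the established human lung cancer line NCI-H358 and taken by symbol from the 60230 genes of the deposited tables. They were grouped by what their receptors bind: collagen (ITGA2), laminin (ITGA3, ITGA6 and ITGB4), the short arginine-glycine-aspartate motif called RGD (ITGA5, ITGAV, ITGB5, ITGB6 and ITGB8), and ITGB1 as a beta chain shared between classes. Parental cells were sensitive to sotorasib, a small-molecule cancer drug, and received no treatment. The other libraries came from 1 resistant derivative, NCI-H358-R, which had been kept in 250 nM sotorasib for roughly 2 months until it grew readily. It was profiled with no drug (off drug) and at 4 days after a 250 nM dose (on drug). Each state had 3 libraries of polyadenylated RNA, all from cells in medium with 10% serum. The labels give no time off drug, so resistance, withdrawal and other differences between the derivative and its parent cannot be told apart.

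Integrins are cell surface receptors made of 1 alpha and 1 beta chain, which link the extracellular matrix outside the cell to the actin or keratin cytoskeleton inside it. The pairing of chains sets the ligand, and in epithelium laminin receptors anchor cells to the basement membrane, while RGD receptors bind fibronectin, vitronectin and the latent form of TGF-beta. A receptor reaches the surface only as a pair, so transcript levels of single chains do not give receptor levels.

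Parental libraries held 25.7 to 31.79 counts in units of 1e6, those off drug 25.73 to 33.99 and those on drug 33.39 to 34.73. The on-drug libraries had the highest TMM scaling factors, 1.113 to 1.124 against 0.917 to 0.972 in the others. Epithelial markers (EPCAM, CDH1 and 4 keratins) were abundant in every library, with summed levels of 6666 to 8058 CPM (counts per 1e6 counts, TMM-scaled) in parental cells, 6847 to 7050 off drug and 4007 to 4773 on drug. Leukocyte markers summed to 1.72 to 7.04 CPM over all libraries, with PTPRC at 7 counts or fewer and CD3E at 1 or fewer. CD14, of the same list, had 71 to 124 counts in parental libraries and 7 to 22 in the others, and LYZ had 26 to 109 over all libraries. Endothelial markers summed to 11.2 to 13.9, 53.1 to 54.7 and 15.1 to 19.9 CPM in parental, off-drug and on-drug libraries, and fibroblast markers to 27.0 to 31.1, 17.9 to 18.6 and 125.7 to 157.8 CPM. COL3A1, a fibroblast collagen, had 0 counts in each of the 6 libraries outside the on-drug state, and DCN had at most 7 counts in any library. PDGFRB, of the same list, had 0, 0 and 1 counts in parental libraries, 62, 38 and 64 off drug, and 107, 78 and 103 on drug. PECAM1, a defining endothelial gene, had 24, 21 and 21 counts in parental libraries, 126, 114 and 168 off drug, and 4, 1 and 6 on drug. These sums move with the states, and their part in the integrin values was not tested. In bulk RNA, fewer cells expressing a gene and less RNA per cell cannot be told apart. The design text calls the replicates biological, but no label ties them to separate cultures, so the p-values refer to the spread among these libraries alone, and that spread may be technical.

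All 10 genes passed the filter on low counts, and most differed between states. Off drug against parental, 6 of 10 rose, 3 fell and 1 did not pass the test, where 28.4% of the 17307 genes tested were called higher and 26.6% lower, 55% in all. On drug against off drug, 2 rose and 8 fell, where 31.4% of all genes were called higher, 31.2% lower and 62.6% in either direction. On drug against parental, 2 rose and 8 fell, against 33.4%, 32.9% and 66.3% of all genes. Calls are from edgeR's quasi-likelihood test, where a gene needed an adjusted p (Benjamini-Hochberg, across all genes tested) below 0.05. The median log2 fold change of the 10 genes was 0.46 off drug against parental, -1.54 on drug against off drug and -1.51 on drug against parental, and that of all genes was 0.000698, 0.016 and 0.0162. The 3 comparisons share libraries, so their values for a gene are not independent of each other.

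Off drug against parental is called the first step here, and on drug against off drug the second. The steps name comparisons and not an order in time, which the labels do not give for the 2 resistant states. Together they gave 4 patterns. ITGA2, ITGA3, ITGA5, ITGA6, ITGB5 and ITGB1 rose off drug and fell on drug, as did 13.8% of all genes. ITGB4 and ITGB6 fell at both steps, as did 6.04% of all genes. ITGB8 fell off drug and rose on drug, as did 12% of all genes. ITGAV was not called at the first step and rose at the second. None of the 10 rose at both steps, as 5.84% of all genes did.

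**Figure D1:**
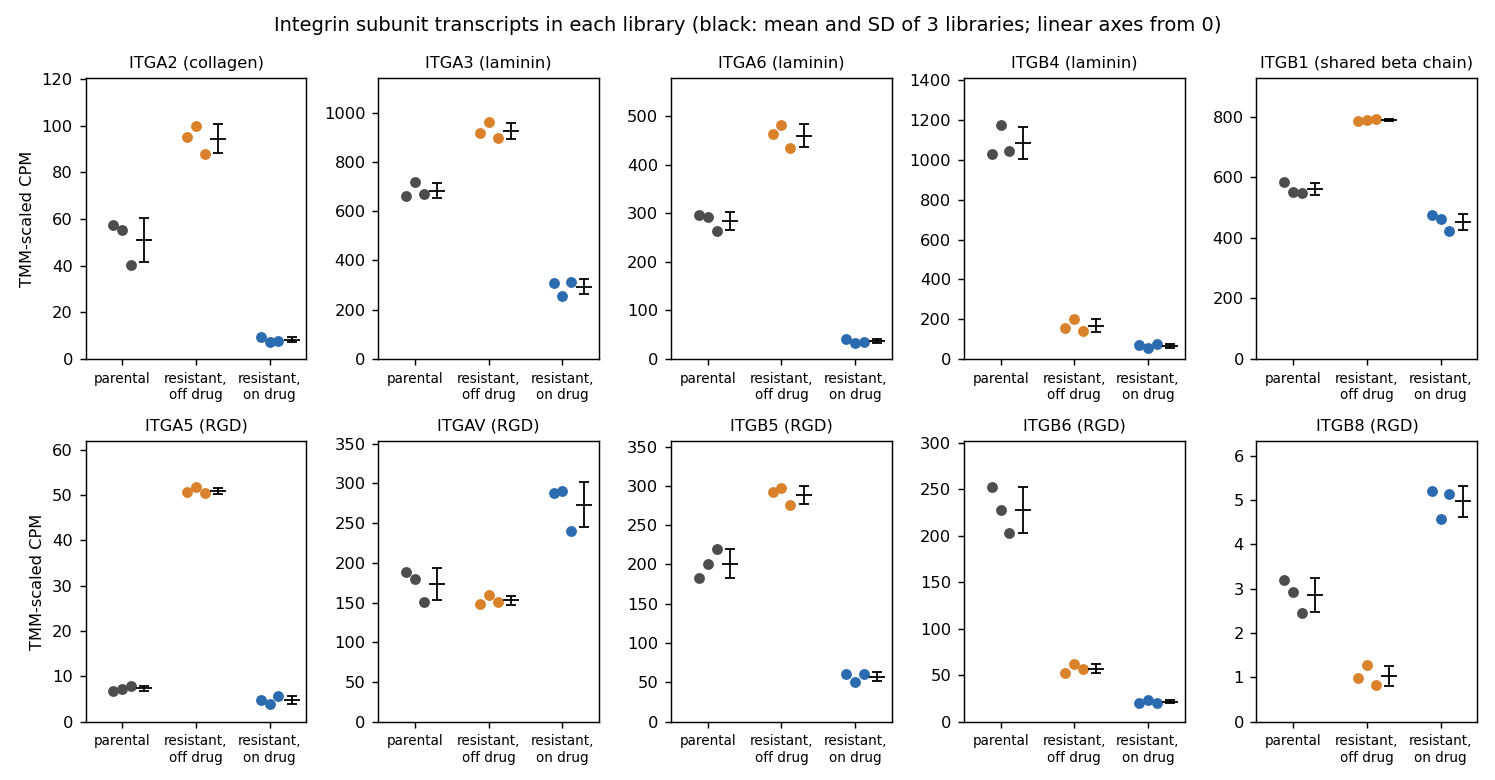
TMM-scaled CPM of the 10 integrin subunit genes in each library, with 1 panel per gene, linear axes from 0, the 3 states on the x axis and the mean and SD of 3 libraries in black. ITGA6 shows 264 to 297 CPM in parental cells, 435 to 481 off drug and 33.5 to 41.0 on drug, and ITGAV is the panel in which parental and off-drug libraries overlap.

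ITGA2 (ENSG00000164171.11, chromosome 5, 52989326 to 53094779 on the plus strand, GRCh38) encodes the alpha chain of the main collagen receptor of epithelium. Its level was 57.4, 55.4 and 40.4 CPM in the parental libraries, 95.3, 100.1 and 88.0 off drug, and 9.65, 7.46 and 7.81 on drug. The states did not overlap, and the lowest off-drug library lay above the highest parental one. ITGA2 rose 1.85-fold off drug (log2 fold change 0.89 ± 0.12 SE, edgeR adjusted p = 1.5e-05). On drug it fell 11.4-fold against off drug (-3.51 ± 0.14, edgeR adjusted p = 4.4e-12) and 6.14-fold against parental cells (-2.62 ± 0.14, edgeR adjusted p = 1.0e-10).

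ITGA3 (ENSG00000005884.18, chromosome 17, 50055968 to 50090481, plus strand) pairs with ITGB1 in a laminin receptor and was the most abundant of the 5 alpha chains in each state by mean TPM (transcripts per 1e6, a length-scaled unit), though its on-drug range overlapped that of ITGAV. Its level was 662, 719 and 670 CPM in parental libraries, 917, 961 and 896 off drug, and 309, 257 and 314 on drug, with no overlap between states. It rose 1.35-fold off drug (0.44 ± 0.09, edgeR adjusted p = 0.00048). On drug it was 3.15-fold below off drug (-1.66 ± 0.09, edgeR adjusted p = 1.8e-10) and 2.33-fold below the parental level (-1.22 ± 0.09, edgeR adjusted p = 5.1e-09).

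ITGA6 (ENSG00000091409.16, chromosome 2, 172427354 to 172506282, plus strand) pairs with ITGB4 in the hemidesmosome, the junction that ties the keratin network to laminin, and can also pair with ITGB1. Parental libraries held 297, 292 and 264 CPM, off-drug libraries 462, 481 and 435, and on-drug libraries 41.0, 33.5 and 35.0. Every off-drug library was above every parental one, and all 3 on-drug libraries were far below both. The gene rose 1.62-fold off drug (0.69 ± 0.09, edgeR adjusted p = 6.1e-06) and fell 12.6-fold on drug against off drug (-3.65 ± 0.10, edgeR adjusted p = 6.1e-14). Its absolute change at the second step exceeded that of 97.9% of the genes tested. Against parental cells the on-drug level was 7.78-fold lower (-2.96 ± 0.09, edgeR adjusted p = 5.2e-13).

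ITGB4 (ENSG00000132470.14, chromosome 17, 75721328 to 75757818, plus strand), the beta chain of the hemidesmosome and a partner of ITGA6 only, moved away from its partner at the first step. It measured 1029, 1177 and 1046 CPM in parental libraries, 154, 203 and 143 off drug, and 72.4, 53.1 and 73.4 on drug. The 3 states did not overlap, and stood in falling order from parental to off drug to on drug. ITGB4 fell 6.50-fold off drug (-2.70 ± 0.14, edgeR adjusted p = 3.9e-10), while ITGA6 rose. On drug ITGB4 was 2.52-fold below off drug (-1.33 ± 0.14, edgeR adjusted p = 4.0e-07) and 16.4-fold below parental cells (-4.03 ± 0.15, edgeR adjusted p = 2.3e-12). That last change exceeded in size those of 97.4% of the genes tested. All 3 laminin class genes fell on drug, with a median of -2.96 against parental cells.

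ITGB1 (ENSG00000150093.20, chromosome 10, 32900319 to 33005792, minus strand), the beta chain shared by ITGA2, ITGA3, ITGA5, ITGA6 and ITGAV, changed least of the called genes on drug. It measured 586, 553 and 548 CPM in parental libraries, 786, 788 and 792 off drug, and 476, 462 and 424 on drug. Its 3 off-drug libraries agreed closely (SD 3.15) and lay above all others. ITGB1 rose 1.40-fold off drug (0.49 ± 0.07, edgeR adjusted p = 4.3e-05) and fell 1.74-fold on drug (-0.80 ± 0.07, edgeR adjusted p = 1.5e-07). Against parental cells the on-drug level fell by 0.31 on the log2 scale (SE 0.07, edgeR adjusted p = 0.0018), a call that depended on the scaling. It was -0.09 with library size only (edgeR adjusted p = 0.31) and -0.04 on log2(TPM + 1) and on log2(TPM + 0.1) (limma adjusted p = 0.735 and 0.736).

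ITGA5 (ENSG00000161638.11, chromosome 12, 54395261 to 54419460, minus strand), which with ITGB1 forms the classical fibronectin receptor, had the largest rise of the 10 genes off drug. It measured 6.80, 7.33 and 7.89 CPM in parental libraries, 50.6, 51.8 and 50.4 off drug, and 4.79, 3.85 and 5.69 on drug. The off-drug libraries stood far above the rest, and the on-drug libraries were all below the parental ones. ITGA5 rose 6.94-fold off drug (2.80 ± 0.12, edgeR adjusted p = 5.0e-11) and fell 10.7-fold on drug (-3.41 ± 0.12, edgeR adjusted p = 1.4e-12). The drop to 1.53-fold below parental cells (-0.62 ± 0.13, edgeR adjusted p = 0.00049) was not called on log2(TPM + 1) (-0.17, limma adjusted p = 0.55) or on log2(TPM + 0.1) (-0.24, limma adjusted p = 0.57). Counts per TPM follow the transcript length assigned to a gene, and were divided by their median over genes in the same library. This relative value ranged for ITGA5 from 1.09 in parental library 2 to 2.39 in parental library 1. That spread was larger than in 95.9% of 13548 genes. Its TPM is therefore less steady than its counts, at 1.37, 3.32 and 1.55 in the 3 parental libraries.

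Short promoter stretches of ITGA5, ITGB1, ITGA6 and ITGB5 are printed because these were the genes with a motif match. RefSeq promoter windows (250 bases before to 50 after a start, GRCh38.p14) were found for 8 of the 10 genes, in 13 windows. The motifs searched on both strands were TGANTCA (AP-1), GGAATG (TEAD) and CCGGAA (ETS core), with matches in capitals and 8 bases on either side. Each sequence reads 5′ to 3′ along its gene.
ITGA5 AP-1, chr12:54419258-54419280, minus strand: ccccgcgtTGAGTCAttcgcctc
ITGA5 TEAD, chr12:54419335-54419356, minus strand: gggacccaGGAATGcccccccg
ITGB1 TEAD, chr10:32958399-32958420, minus strand: gcgggagaGGAATGcgtttccg
ITGB1 ETS, chr10:32958390-32958411, minus strand: gaatgcgtTTCCGGagggagag
ITGA6 ETS, chr2:172427420-172427441, plus strand: gtcgtggcTTCCGGgcaggtac
ITGB5 ETS, chr3:124901448-124901469, minus strand: aactcaacTTCCGGcggggcgg
ITGA5 was the only one of the 8 genes with an AP-1 match, which spans the RefSeq start, against 9.37% of 27305 genes. TEAD matches stood in 2 of the 8 genes, against 16.73% of all, and ETS matches in 3, against 20.1%. The TEAD and ETS matches of ITGB1 lie 1 after the other and share part of the stretches printed. For ITGA5, ITGB1 and ITGA6 the RefSeq starts differ from the GENCODE 29 bounds given with each gene. By those bounds their matches lie inside the gene, and that of ITGB5 lies before it. Matches this short occur often, and they are a description of the sequence only.

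ITGAV (ENSG00000138448.12, chromosome 2, 186590065 to 186680901, plus strand) is the alpha chain shared by the receptors of ITGB5, ITGB6 and ITGB8, and was 1 of only 2 of the 10 genes higher on drug. It measured 189, 180 and 151 CPM in parental libraries, 148, 160 and 151 off drug, and 288, 291 and 240 on drug. Parental and off-drug libraries overlapped, and all 3 on-drug libraries were above both. Off drug against parental the log2 fold change was -0.18 ± 0.10 (edgeR adjusted p = 0.13), which did not pass the test. It did pass with upper-quartile scaling (-0.27, edgeR adjusted p = 0.028), with a filter at an average log2 CPM of 1 (-0.23, edgeR adjusted p = 0.049) and without parental library 3 (-0.27, edgeR adjusted p = 0.019). ITGAV rose 1.79-fold on drug against off drug (0.84 ± 0.10, edgeR adjusted p = 1.7e-06) and 1.58-fold against parental cells (0.66 ± 0.10, edgeR adjusted p = 2.0e-05).

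ITGB6 (ENSG00000115221.12, chromosome 2, 160099666 to 160200313, minus strand) is an epithelial beta chain whose pair with ITGAV binds and activates latent TGF-beta. Its level was 253, 228 and 203 CPM in parental libraries, 52.7, 62.1 and 56.8 off drug, and 20.5, 23.2 and 20.5 on drug. No 2 states overlapped, and each step went down. ITGB6 fell 3.99-fold off drug (-1.99 ± 0.10, edgeR adjusted p = 2.1e-10) and 2.67-fold more on drug (-1.42 ± 0.10, edgeR adjusted p = 4.6e-09). The on-drug level was 10.7-fold below that of parental cells (-3.41 ± 0.10, edgeR adjusted p = 3.4e-13), so on drug the partners ITGAV and ITGB6 changed in opposite directions.

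The promoters of these partners are printed because the chains form 1 receptor and their transcripts parted. Both stretches end just before the first annotated start of transcription, are from RefSeq on GRCh38.p14 and read 5′ to 3′ along the gene, with no base in capitals because none of the 3 motifs matched in either window.
ITGB6, chr2:160200314-160200522, minus strand: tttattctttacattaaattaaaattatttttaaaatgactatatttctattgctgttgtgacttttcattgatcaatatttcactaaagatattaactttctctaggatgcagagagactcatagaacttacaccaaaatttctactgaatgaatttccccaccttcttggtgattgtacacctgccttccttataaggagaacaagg
ITGAV, chr2:186589806-186590055, plus strand: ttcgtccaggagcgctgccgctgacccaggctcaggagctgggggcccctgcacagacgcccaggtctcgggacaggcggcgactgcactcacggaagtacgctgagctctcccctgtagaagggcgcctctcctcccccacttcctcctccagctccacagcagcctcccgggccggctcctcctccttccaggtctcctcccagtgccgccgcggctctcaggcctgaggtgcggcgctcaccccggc
They differ in base composition. G and C made up 31.7% of the ITGB6 window of 300 bases, and 1.7% of all windows had less. In the ITGAV window of the stretch printed the share was 70.7%, and 81.2% of windows had less. ITGAV has a second RefSeq start, not printed, whose window held 41.3%, and 13.6% of windows had less. The contrast with ITGB6 is thus smaller at that start. The median over all windows was 58.7%.

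ITGB5 (ENSG00000082781.12, chromosome 3, 124761948 to 124901418, minus strand), the beta chain of a vitronectin receptor, measured 182, 201 and 220 CPM in parental libraries, 292, 298 and 276 off drug, and 60.7, 50.4 and 61.0 on drug. The states did not overlap. ITGB5 rose 1.43-fold off drug (0.52 ± 0.09, edgeR adjusted p = 0.00017) and fell 5.03-fold on drug against off drug (-2.33 ± 0.10, edgeR adjusted p = 8.7e-12). Its on-drug level was 3.50-fold below parental cells (-1.81 ± 0.10, edgeR adjusted p = 1.3e-10).

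ITGB8 (ENSG00000105855.10, chromosome 7, 20330702 to 20415754, plus strand), whose pair with ITGAV also activates latent TGF-beta, had the lowest mean TPM of the 10 genes in each state. Its 98, 73 and 66 counts in parental libraries came to 3.21, 2.92 and 2.46 CPM. Off drug it had 25, 31 and 26 counts (0.99, 1.27 and 0.83 CPM), and on drug 199, 170 and 198 (5.21, 4.58 and 5.12 CPM). The states did not overlap, and the order was off drug, parental, on drug. ITGB8 fell 2.80-fold off drug (-1.48 ± 0.22, edgeR adjusted p = 2.6e-05) and rose 4.84-fold on drug against off drug (2.28 ± 0.20, edgeR adjusted p = 9.3e-08). On drug it was 1.73-fold above parental cells (0.79 ± 0.18, edgeR adjusted p = 0.0012). These counts are low, and its standard errors were the largest of the 10 genes.

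**Figure D2:**
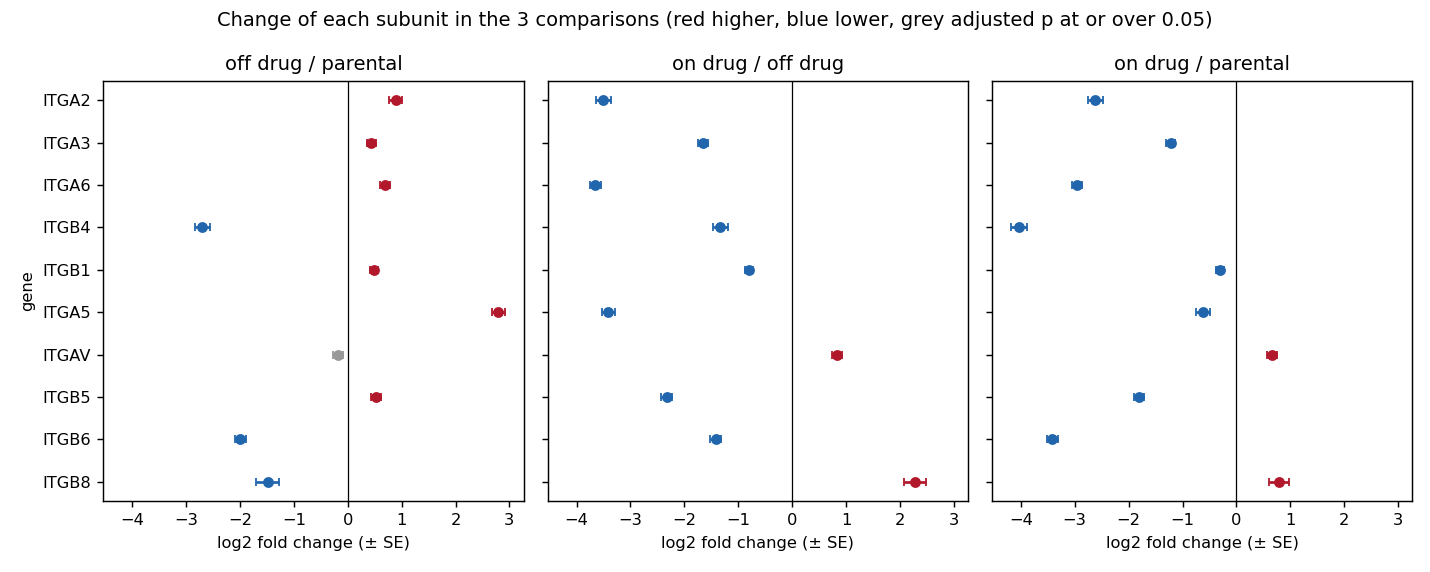
Log2 fold change of each gene with its SE in the 3 comparisons, with genes on the y axis, from 1 edgeR fit of all libraries. ITGA5 lies farthest right off drug (2.80), ITGA6 farthest left on drug against off drug (-3.65), and ITGAV and ITGB8 are the 2 genes to the right of 0 in both on-drug panels.

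No 2 groups overlapped in TMM-scaled CPM for 9 of 10 genes off drug against parental, where 61.9% of all genes tested did not overlap. On drug, all 10 genes were apart from off drug and from parental cells, against 67.6% and 69% of all genes. Past a change of 2-fold, the rule for a larger change, 1 gene rose off drug (ITGA5), as did 7.49% of all genes, and 3 fell (ITGB4, ITGB6 and ITGB8), as did 9.73%, for 17.2% of all genes in either direction. On drug against off drug ITGB8 rose and 7 genes fell by more than 2-fold, where 13.5% of all genes rose, 11.3% fell and 24.8% changed in either direction. The 2 below it were ITGAV and ITGB1. Against parental cells 0 genes rose and 6 fell past 2-fold, where 13.4% of all genes rose, 13.9% fell and 27.3% changed in either direction. The 6 were ITGA2, ITGA3, ITGA6, ITGB4, ITGB5 and ITGB6.

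The order of the 10 genes by TPM differed between the states. In parental cells ITGB4 was highest at 242 ± 22.4 TPM (SD, n = 3), followed by ITGB1 at 175 ± 13.6, ITGA3 at 128 ± 9.14 and ITGB5 at 89.4 ± 6.59. ITGB6 at 63.6 ± 9.60 and ITGA6 at 57.5 ± 5.77 overlapped, and below them stood ITGAV at 31.2 ± 5.40, ITGA2 at 7.70 ± 1.83, ITGA5 at 2.08 ± 1.08 and ITGB8 at 0.41 ± 0.078. Off drug ITGB4 went from the first to the fifth place, at 39.6 ± 16.5 TPM, where it overlapped ITGAV at 29.15 ± 1.81.

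Off drug the leading gene was ITGB1 at 259.5 ± 9.86 TPM, before ITGA3 at 187 ± 16.3, ITGB5 at 141 ± 7.58 and ITGA6 at 94.7 ± 8.16. ITGB6, ITGA2 and ITGA5, at 16.4 ± 1.43, 15.0 ± 1.52 and 13.1 ± 2.52, overlapped with their neighbours, and ITGB8 stood at 0.15 ± 0.037. On drug ITGB1 led again at 170.4 ± 14.6 TPM, and ITGA3 at 70.6 ± 11.4 and ITGAV at 58.7 ± 6.91 overlapped in second place. ITGB5 (33.0 ± 6.86), ITGB4 (20.3 ± 4.89), ITGA6 (8.96 ± 1.33) and ITGB6 (6.83 ± 0.33) followed. ITGA5 at 1.69 ± 0.64 and ITGA2 at 1.49 ± 0.30 overlapped, above ITGB8 at 0.83 ± 0.059.

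Shares of the summed TPM of the 5 alpha chains, computed within each library and so free of scaling between libraries, showed how the mix of classes differed. Laminin class alpha chains (ITGA3 and ITGA6) made up 80.3, 81.3 and 84.3% in parental libraries, 83.5, 82.9 and 83.0% off drug, and 57.3, 52.0 and 59.1% on drug. RGD class alpha chains (ITGA5 and ITGAV) made up 15.8, 15.2 and 12.99%, then 11.9, 12.8 and 12.7%, then 41.6, 47.0 and 39.9%. Most of the on-drug RGD share was ITGAV, at 41.6% ± 4.13 of alpha TPM (SD, n = 3) against 8.62% ± 0.28 off drug and 13.75% ± 1.49 in parental cells. ITGA6 was at 25.4% ± 0.87, 28.0% ± 0.54 and 6.33% ± 0.28 in parental, off-drug and on-drug cells, and ITGA3 at 56.5% ± 2.74, 55.2% ± 0.25 and 49.8% ± 3.86. The collagen chain ITGA2 held 3.38% ± 0.58, 4.42% ± 0.19 and 1.05% ± 0.084. Alpha chains outside these 5 are not in the sums. Among them ITGAE was at 30.3 ± 1.4 TPM in parental cells, 25.5 ± 2.6 off drug and 57.6 ± 11.8 on drug, so the shares hold for the 5 chains only.

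Among the 5 beta chains, ITGB4 held 42.4% ± 2.74 of the summed TPM in parental cells, 8.54% ± 3.00 off drug and 8.72% ± 1.79 on drug. ITGB1 held 30.7% ± 2.28, 56.9% ± 2.02 and 73.7% ± 4.05 (SD, n = 3). ITGB5 held 15.7% ± 1.25, 30.9% ± 1.19 and 14.2% ± 2.49, and ITGB6 held 11.1% ± 1.56, 3.60% ± 0.21 and 2.96% ± 0.29. ITGB8 held at most 0.364% in any library. The summed beta TPM was 550 to 603.4 in parental, 421.6 to 486.5 in off-drug and 214.9 to 253.1 in on-drug libraries, and the summed alpha TPM 204.2 to 245.1, 310.8 to 369.8 and 128.9 to 160.5.

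**Figure D3:**
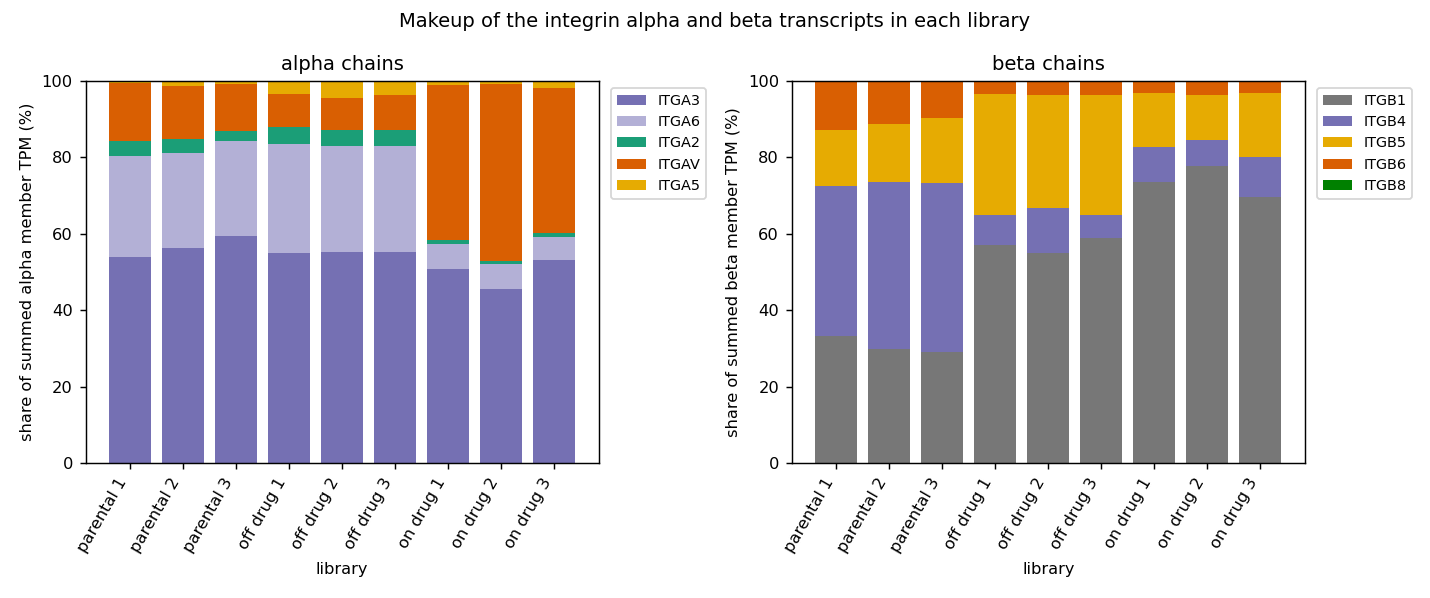
Share of the summed TPM of the alpha chains (left) and beta chains (right) that each gene held, as stacked bars for each of the 9 libraries, from 0 to 100%. ITGAV fills 38.1 to 46.2% of the alpha bars on drug against 8.44 to 8.94% off drug, ITGB4 fills 39.2 to 44.2% of the beta bars in parental libraries only, and ITGB8 is too small to be seen.

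The ratio of partner chains within a library differed between states. ITGB6 per ITGAV, as a ratio of TPM, was 2.04, 1.98 and 2.11 in parental libraries, 0.546, 0.579 and 0.565 off drug, and 0.107, 0.119 and 0.126 on drug. The state means thus differed 3.63-fold at the first step, 4.82-fold at the second and 17.5-fold from parental to on drug. ITGB5 per ITGAV was 2.36, 2.73 and 3.76, then 5.16, 4.61 and 4.76, then 0.556, 0.422 and 0.734. So ITGB5 transcripts outnumbered those of ITGAV, per length, in all 6 libraries outside the on-drug state, and in none of the 3 on drug.

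ITGB8 per ITGAV stayed low, at 0.0126 to 0.0131 in the parental, 0.00415 to 0.00603 in the off-drug and 0.0130 to 0.0160 in the on-drug state, with parental and on-drug values overlapping. ITGB4 per ITGA6 was 3.63, 4.31 and 4.78 in parental libraries, 0.378, 0.563 and 0.291 off drug, and 2.171, 1.77 and 2.88 on drug. ITGB4 was above ITGA6, per length, in all libraries of the parental and on-drug states and below it in all 3 off drug. Counts per TPM of ITGB4, relative to the median gene of the library, ranged from 1.84 to 2.80 between libraries. That spread was larger than in 84.4% of genes, so the ratio of ITGB4 to ITGA6 carries some of that length difference. The sum of the 5 alpha chains per ITGB1 was 1.23, 1.37 and 1.28 in parental libraries, 1.27, 1.39 and 1.25 off drug, and 0.862, 0.771 and 0.855 on drug.

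With 3 libraries a state, the exact two-sided permutation test of a ratio cannot give a p under 0.1. That value was reached by 21 of the 24 tests (5 ratios and 3 class shares in 3 comparisons), with a Benjamini-Hochberg adjusted p of 0.114, so none passed 0.05. The other 3 were ITGB8 per ITGAV on drug against parental (exact p = 0.3), the alpha sum per ITGB1 off drug against parental (exact p = 0.8) and the laminin share off drug against parental (exact p = 0.4).

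**Figure D4:**
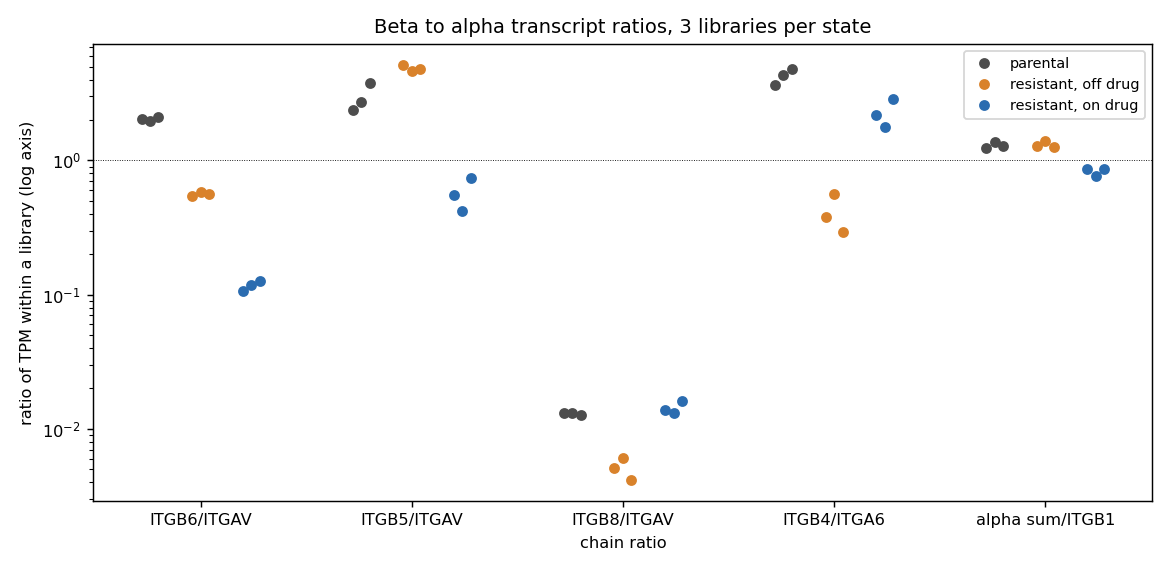
Ratios of TPM within a library (log axis) for 4 pairs of chains and for the alpha sum per ITGB1, with 3 points per state. ITGB6/ITGAV steps down from about 2.04 to 0.56 and 0.12, while ITGB4/ITGA6 drops from 4.24 to 0.41 and stands at 2.27 on drug.

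Counts for the gene lists that follow stand against the shares of all genes tested. Off drug against parental 28.4% of all genes were called higher and 26.6% lower. These shares were 31.4% and 31.2% on drug against off drug, and 33.4% and 32.9% on drug against parental. A list whose counts lie near these shares shows no more than the call rate of all genes. Of 16 other integrin subunits, 10 passed the filter. Off drug against parental 5 rose and 1 fell (median log2 fold change 0.44, against 0.000698 for all genes, and 0.864 without ITGA9, which was at the floor of 3 counts or below in both states), on drug against off drug 2 rose and 6 fell (-1.38), and on drug against parental 2 rose and 4 fell (-0.44). ITGA10, a collagen receptor chain, rose off drug from 0.875 ± 0.173 to 7.69 ± 0.452 CPM (3.12 ± 0.21, edgeR adjusted p = 5.0e-09) and was at 0.263 ± 0.0443 on drug. ITGA1, another collagen receptor chain, was at 10.2 ± 1.86, 27.8 ± 1.87 and 7.52 ± 1.11 CPM in the 3 states. Like ITGA2, both rose off drug and fell on drug. ITGB3, a further partner of ITGAV, went from 22.8 ± 2.44 in parental cells to 18.7 ± 2.13 off drug and 2.60 ± 0.169 on drug (-3.13 ± 0.13 against parental, edgeR adjusted p = 5.7e-12). ITGB2, the beta chain of leukocyte integrins, measured 29.1 ± 3.13, 52.9 ± 2.90 and 28.8 ± 4.05 CPM.

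Laminin chains are the ligands of ITGA3 and of ITGA6 with ITGB4. Of 9 tested of 12 listed, 4 rose and 3 fell off drug (median 0.26), 2 rose and 5 fell on drug against off drug (-1.10), and 0 rose and 6 fell on drug against parental (-0.87). LAMA3 and LAMB3 encode chains of the laminin found at hemidesmosomes. LAMA3 went from 121 ± 10.3 to 242 ± 17.4 and then 10.1 ± 1.06 CPM (-4.58 ± 0.11 on drug against off drug, edgeR adjusted p = 2.8e-14). LAMB3 fell at both steps, from 543 ± 60.3 to 416 ± 27.1 and 76.4 ± 11.9 CPM. LAMA5, of the broadly expressed laminins, fell off drug (-1.43 ± 0.11, edgeR adjusted p = 1.9e-08).

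Of the 4 other hemidesmosome genes, 1 rose and 2 fell off drug (median -0.30), 1 rose and 2 fell on drug against off drug (-0.63), and 0 rose and 3 fell on drug against parental (-0.59). COL17A1, a transmembrane collagen of that junction, fell at each step, from 21.25 ± 2.01 to 12.8 ± 2.55 and 5.59 ± 0.468 CPM. PLEC, the linker of ITGB4 to keratin, rose off drug from 1078 ± 224 to 1642 ± 101 CPM and fell on drug to 617 ± 89.4 (-1.41 ± 0.14, edgeR adjusted p = 2.0e-07). The other genes of the list were CD151, which fell off drug (-0.67 ± 0.10, edgeR adjusted p = 3.3e-05), and DST, which was not called (0.07 ± 0.17, edgeR adjusted p = 0.76). ITGB4, COL17A1 and CD151 thus fell at the first step while PLEC rose.

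Collagen chains went the other way from ITGA2 on drug. Of 11 tested of 14 listed, 3 rose and 3 fell off drug (median 0.00, or -0.30 without 3 genes at 3 or fewer counts in each library of both states). On drug 9 rose and 1 fell against off drug (1.65), and 11 rose and 0 fell against parental cells (2.19, or 2.05 with 2 genes that had no parental count set at 3 counts per library). Without on-drug library 1, 7 of 10 tested rose against parental cells. COL6A2 was at 5.04 ± 0.931, 26.0 ± 1.58 and 35.6 ± 2.87 CPM, COL1A1 at 26.6 ± 1.97, 13.9 ± 1.31 and 43.9 ± 3.05, and COL6A3 at 0.457 ± 0.244, 11.3 ± 0.989 and 2.16 ± 0.324. Many of these chains were scarce. Among the 6 that averaged 1 or more in log2 CPM, 4 rose and 1 fell on drug against off drug, and 6 rose against parental cells. The summed fibroblast markers given above rose with these collagens, and 3 genes (COL1A1, COL1A2 and COL3A1) are in both lists.

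RGD ligands are bound by the receptors of ITGA5 and ITGAV. Of 11 tested of 14 listed, 4 rose and 3 fell off drug (median -0.01), 4 rose and 4 fell on drug against off drug (0.09), and 5 rose and 3 fell on drug against parental (0.18). FN1, encoding fibronectin, rose off drug from 66.9 ± 14.7 to 264 ± 19.7 CPM (1.98 ± 0.15, edgeR adjusted p = 1.7e-08) and measured 310.1 ± 52.5 on drug. SPP1, encoding osteopontin, fell from 308 ± 15.7 to 65.7 ± 3.02 and 3.43 ± 0.555 CPM (-6.49 ± 0.12 on drug against parental, edgeR adjusted p = 1.4e-15). THBS1, encoding thrombospondin, went from 32.5 ± 1.64 to 39.5 ± 0.852 and 238 ± 21.1 CPM, and NPNT, encoding nephronectin, from 7.93 ± 0.306 to 3.01 ± 0.885 and 27.4 ± 2.25 CPM.

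The ITGB6 and ITGB8 receptors act on latent TGF-beta. The 6 genes listed as its carriers or their relatives, LTBP1 to LTBP4, LRRC32 and NRROS, were all tested. Off drug 3 of 6 rose and 2 fell (median 0.84), on drug against off drug 1 rose and 5 fell (-1.66), and on drug against parental 1 rose and 3 fell (-0.10). The genes that rose off drug include LTBP2 (1.85 ± 0.09, edgeR adjusted p = 1.38e-10), which is listed as a relative. LTBP1, which tethers the latent complex to matrix, went from 25.2 ± 0.827 to 98.4 ± 4.57 and 16.6 ± 0.853 CPM. It rose off drug (1.96 ± 0.08, edgeR adjusted p = 4.0e-11), where ITGB6 and ITGB8 fell. LTBP3 was at 523 ± 53.4, 467 ± 10.8 and 127 ± 10.5 CPM.

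Talins and kindlins bind beta chain tails and switch integrins on. All 4 tested of 5 listed rose off drug (median 1.32), 2 rose and 2 fell on drug against off drug (-0.32), and 3 rose and 1 fell on drug against parental (0.86). TLN1 went from 118 ± 20.9 to 319 ± 18.0 and 178.5 ± 17.5 CPM, and FERMT1, the epithelial kindlin, from 54.1 ± 6.01 to 125 ± 9.63 and 35.7 ± 2.08. TLN2, the less abundant talin, rose at both steps, from 1.36 ± 0.11 to 6.28 ± 0.576 and 18.1 ± 0.453 CPM, though on log2(TPM + 0.1) neither step was called (limma adjusted p = 0.099 and 0.14). Of 5 tested inhibitors of 6 listed, 1 rose and 2 fell off drug (median -0.03), 1 rose and 1 fell on drug against off drug (-0.04), and 1 rose and 1 fell on drug against parental (0.05).

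Focal adhesion genes, which couple integrins to actin and signalling, changed in both directions at each step. Of 17 tested of 18 listed, 9 rose and 2 fell off drug (median 0.31), 3 rose and 10 fell on drug against off drug (-0.76), and 5 rose and 6 fell on drug against parental (-0.03). The counts on drug against parental lie near the shares of all genes, 33.4% higher and 32.9% lower. PARVA, an adaptor of the integrin-linked kinase complex, went from 7.34 ± 0.984 to 43.1 ± 1.25 and 19.4 ± 0.24 CPM (2.55 ± 0.10 off drug, edgeR adjusted p = 2.4e-11). ACTN1, an actin crosslinker, went from 228 ± 18.0 to 688 ± 10.9 and 243 ± 15.9 CPM. TNS4, an epithelial tensin, went from 70.5 ± 11.2 to 101.5 ± 1.06 and 24.8 ± 2.485 CPM. PARVB, of the same list, went the other way off drug, from 6.57 ± 1.41 to 2.25 ± 0.346 CPM (-1.54 ± 0.21, edgeR adjusted p = 1.31e-05). On drug it was at 2.32 ± 0.457 CPM. Of 9 tetraspanin and integrin trafficking genes, 3 rose and 3 fell off drug (median -0.07), 1 rose and 4 fell on drug against off drug (-0.16), and 2 rose and 5 fell on drug against parental (-0.33). Their off-drug counts lie near the shares of all genes, 28.4% higher and 26.6% lower.

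**Figure D5:**
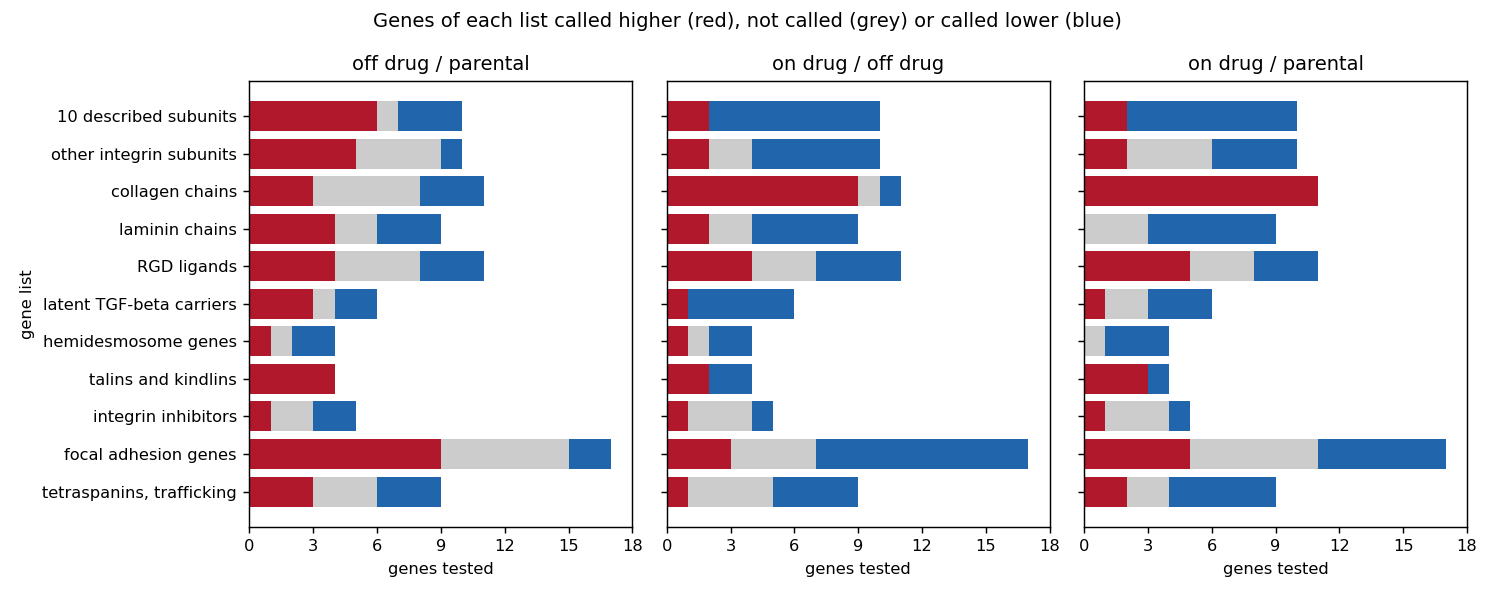
Number of tested genes of each list that were called higher (red), not called (grey) or called lower (blue) in the 3 comparisons, with lists on the y axis and genes tested on the x axis. Collagen chains are red throughout on drug against parental (11 of 11), while the 10 integrin genes (2 of 10) and laminin chains (0 of 9) show few or no red genes there. Over all genes tested, 33.4% were called higher in that comparison.

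For each of the 10 genes, the genes nearest in profile were found among 10093 that averaged 3 or more in log2 CPM, as the root mean square difference of mean-centred log2 CPM over the 9 libraries. ITGB1 had the closest neighbour, GART at 0.027, and ITGA3 followed with YARS1 at 0.047. ITGAV was nearest to PDE5A (0.0656) and AP5M1 (0.0715), ITGB5 to PLAU (0.0773) and SLC45A3 (0.0899), and ITGA6 to PADI1 (0.0942) and ASNS (0.102). The neighbours of ITGA2 were ANTXR2 (0.0948) and ETV1 (0.12). PLAU encodes the urokinase protease, and ETV1 is an ETS family transcription factor. ITGA5 was nearest to FOSL1, an AP-1 subunit (0.177), and MMP9, a matrix protease (0.212), which both share its rise off drug and fall on drug. ITGB8 was nearest to MX1 (0.147) and MAP2K6 (0.159), and ITGB6 to ADA (0.194) and CLDN10 (0.197). ITGB4 had the least close neighbours, TMEM40 (0.268) and NECTIN1 (0.278). With 3 states, a small difference means mainly that 2 genes had similar fold changes between the states. The difference was not divided by a gene's own range, 0.9 (log2) for ITGB1 and 4.47 for ITGB4, so the order may partly reflect range. The Pearson correlation with the nearest gene was 0.985 for ITGAV and 0.998 for ITGA6, the reverse of their order above.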

How the data were processed

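Poly(A) RNA of 9 libraries of NCI-H358 was sequenced, 3 per state. The submitters' processing notes name the tools Salmon 0.14.1, FastQC 0.12.1 and bcl2fastq 2.17 and the build GRCh38.p13 without saying what each did. Their strand setting and annotation release were not given in the sources used here. Gene-level estimated counts, which are not depth-scaled, and TPM values, which are scaled to length and depth, were deposited by the authors. Plain counts had been assumed at the design stage, and the estimated counts were rounded for the fit. Of 60230 genes, 141 had no symbol here and were kept by identifier.

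All 9 libraries were fitted at once with edgeR 4.0.16 (R 4.3.3; TMM, filterByExpr with a minimum count of 10 and total of 15, a mean per state, quasi-likelihood test with 6 residual degrees of freedom, common biological coefficient of variation 0.0946). Calls needed an adjusted p below 0.05 (Benjamini-Hochberg, 17307 genes). Each SE is the size of the log2 fold change divided by the root of its F statistic. In a single library 3 counts, the most that a count of 0 allows, equal 0.0864 to 0.117 CPM before TMM scaling, for counting error only. Ratios and shares use TPM within a library and an exact two-sided permutation test. Positions are from GENCODE 29 on GRCh38, and promoters from RefSeq on GRCh38.p14.

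The genes described, the lists and the tests were chosen with earlier results of these data known. From each list and comparison the rule names up to 3 called genes that changed most, did not overlap between states and averaged 1 or more in log2 CPM, and for each integrin gene the 2 nearest profiles. The text gives a selection of them, and values of some genes are not reported here.

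On simulated counts with 1.5-, 2- and 4-fold changes, the fit recovered 73.1, 91 and 100% of changed genes off drug against parental (16773 genes, 5.88% of calls false). On drug against off drug it recovered 80.6, 98.5 and 100% (16824 genes, 6.53% false), and on drug against parental 77.6, 92.5 and 100% (16775 genes, 10% false). No pair of libraries within a state agreed within sampling noise (lowest chi-square per degree of freedom 5.113), so none was merged. Parental library 3 stood at 21.27 and 21.13 from parental libraries 1 and 2, which were at 5.383 from each other. On-drug library 2 stood at 32.88 and 21.82 from on-drug libraries 1 and 3, which were at 10.02. Alternatives were other scalings and filters, DESeq2 1.42.0, limma 3.58.1 (voom, and log2(TPM + 1) or log2(TPM + 0.1)), a replicate block, fits of 2 states only, and each library left out.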

Additional observations from a re-analysis of the deposited data

How the results depend on the processing

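Over all alternatives, single results for the 10 integrin genes kept direction and call in 586 cases, gained a call in 3 (ITGAV off drug against parental) and lost one in 5 (ITGA5 and ITGB1 on drug against parental), all given with those genes. The cause was not tested. Off drug against parental 8 to 10 genes were called, on drug against off drug 9 to 10 and on drug against parental 7 to 10. The TPM fits tested 9 of them, since the mean TPM of ITGB8 was under 1.

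The difference of the alpha sum per ITGB1 off drug against parental, 0.016 on the log2 scale, changed sign as a ratio of CPM (-0.000636) and when a library was left out (-0.028 without off-drug library 2, the lowest, -0.0193 without parental library 1, and at the highest 0.0586 without parental library 2). FLNA on drug against off drug was -0.67, and 0.079 and 0.080 on log2(TPM + 1) and log2(TPM + 0.1). CD151 on drug against parental was -0.38, and 0.011 and 0.012 there. The cause was not tested.

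The replicate numbers did not pair the libraries: deviations of same-numbered libraries correlated at -0.034 to 0.135, over 0.1 in 1 of 9 pairs, and 3 of 9 libraries correlated best with their own number. With the replicate block 9, 10 and 10 integrin genes were called, as without it, and 9443, 10758 and 11417 of all genes, against 9515, 10834 and 11467.

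Scaling moved the median of all genes. With library size only the shift was 0.256 (log2) on drug against off drug and 0.223 on drug against parental, with upper-quartile factors 0.132 on drug against off drug, and on TPM 0.105 to 0.332. The share of calls that were higher, 51.6, 50.1 and 50.4% in the 3 comparisons, became 68.5% and 64.3% in the on-drug comparisons with library size only, and 43.4% off drug against parental and 60% on drug against off drug with upper-quartile factors. On log2(TPM + 1) it was 64.1, 64.2 and 70%, and on log2(TPM + 0.1) 64, 64.2 and 70%.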

Other observations

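ITGA9, an alpha chain that pairs with ITGB1 and binds tenascin and osteopontin, was chosen here after its values were seen. It had 2, 0 and 0 counts in parental libraries, 0, 0 and 2 off drug, and 185, 126 and 141 on drug, which is 4.84, 3.39 and 3.65 CPM. All 3 on-drug libraries were above every other library (edgeR adjusted p = 1.9e-08 against off drug). At 0.64 ± 0.14 TPM on drug (SD, n = 3), it stood near ITGB8. Among alpha chains of leukocyte integrins, ITGAD had 0 counts and ITGAM at most 1 in any library, ITGAX at most 4 and ITGAL at most 10. ITGAE was measured at 239 to 964 counts and rose on drug (0.90 ± 0.15 against off drug and 0.58 ± 0.15 against parental, edgeR adjusted p = 0.000104 and 0.00302).

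Among the markers of other cell types, LUM, a small proteoglycan of fibroblast matrix, had 2775 to 4079 counts in the on-drug libraries, where the parental ones had 49 to 81 and the off-drug ones 34 to 67. COL3A1 had 162 to 197 counts on drug. PDGFRB, a receptor of fibroblasts and pericytes, rose off drug (edgeR adjusted p = 5.4e-08), with the counts given above. Of the 6 endothelial genes, 4 rose off drug and 0 fell, where 28.4% of all genes were called higher. They were TIE1, ESAM, PECAM1 and KDR (6.06 ± 0.23, 4.02 ± 0.18, 2.64 ± 0.26 and 1.02 ± 0.14, edgeR adjusted p = 1.8e-11, 7.5e-11, 4.2e-07 and 1.5e-05). VWF, of the same list, had 21, 14 and 14 counts in parental libraries, 8, 10 and 13 off drug, and 55, 53 and 74 on drug. It was not called off drug (-0.62 ± 0.35, edgeR adjusted p = 0.149). On drug against off drug 2 of the 6 rose, VWF (2.05 ± 0.32, edgeR adjusted p = 3.95e-05) and CDH5, and 4 fell, where 31.4% of all genes rose and 31.2% fell. CDH5, a defining endothelial gene, had 1 to 12 counts in the parental and off-drug libraries and 75 to 83 on drug (3.14 ± 0.48 against off drug, edgeR adjusted p = 3.2e-05).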
